A study of Mus musculus with 7 samples.

Results

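Olig1, Olig2, Sox10, Sox8, Sox6, Nkx2-2 and Myrf are transcription factors of the oligodendrocyte lineage. These 7 genes were taken by name from the 17422 genes of the deposited tables. All 7 were measured, and all 7 had a mean of at least 1 CPM, counts scaled by library size, over the 7 libraries. The choice was by gene name, with no threshold on the values, but with earlier results of these data known.

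The libraries hold RNA of mouse cells sorted by flow cytometry for the red fluorescent protein DsRed. Per the labels, neural precursors were taken from BALB/c embryos at day 14, grown with bFGF and EGF at 10 ng/ml, and infected with retroviruses that carried an oncogene and DsRed. Wild-type precursors received PDGF-B, which activates the PDGF receptors, and Ink/Arf -/- precursors, which lack a tumour suppressor locus, received EGFRvIII, a truncated and constantly active epidermal growth factor receptor. After 10 days of culture 20000 cells were placed in adult BALB/c brains, and the tumours were removed when the first neurological symptoms appeared. By label only, the 3 PDGF-B-labelled gliomas are wild type, the 3 labelled EGFRvIII are Ink/Arf -/-, and 1 culture of wild-type progenitors carries PDGF-B without having been grafted. Levels of the driver genes, given further on, go against the glioma labels. Oncogene and genotype change together between the glioma groups, and all groups carry a retrovirus, which inserts at sites that are not given. The time from graft to symptoms and the age of the hosts are not in the labels. The series calls the gliomas of each model independent tumours, and the culture has no replicate.

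Oligodendrocyte precursors arise from neural stem cells, divide, and later leave the cell cycle to make myelin, the sheath around axons. Olig2 specifies the lineage and Olig1 acts in its maturation. Both are basic helix-loop-helix factors. Sox10 and Sox8 are SoxE factors that maintain precursors and drive myelin genes, and Sox6, a SoxD factor, is known for holding precursors back from differentiation. Nkx2-2, a homeodomain factor, promotes the step out of the precursor state. Myrf, a membrane-bound factor whose released part enters the nucleus, is required for myelin gene expression. Many gliomas carry the programme of these precursors, for which PDGF is a mitogen.

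All coordinates are of GRCm38, the assembly that mm10 denotes. Olig2 (ENSMUSG00000039830, chromosome 16, 91225457 to 91228677, plus strand) and Olig1 (ENSMUSG00000046160, chromosome 16, 91269772 to 91271933, plus strand) are neighbours. Sox10 (ENSMUSG00000033006) lies on chromosome 15 at 79154908 to 79165240, and Sox8 (ENSMUSG00000024176) on chromosome 17 at 25565892 to 25570686, both on the minus strand. Sox6 (ENSMUSG00000051910) spans chromosome 7 from 115470872 to 116038796, Nkx2-2 (ENSMUSG00000027434) chromosome 2 from 147177546 to 147194243, and Myrf (ENSMUSG00000036098) chromosome 19 from 10208272 to 10240748, all on the minus strand. The values are given per gene and do not tell isoforms apart. Sox8 shares 329 exon bases, 10.6% of its exon length, with the antisense gene 2810468N07Rik, which stood between 8.31 and 37.2 CPM. Nkx2-2 shares 278 exon bases, 9.67%, with the antisense gene Nkx2-2os, at most 0.846 CPM. The labels do not say whether counting used strand, so reads in the shared bases of these 2 genes cannot be assigned with certainty.

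The RefSeq promoter table of GRCm38.p6 held 4 of the 7 members. The windows of Nkx2-2 and Olig2 are shown because these genes differed in how they stood against the culture, described further on. They run 5′ to 3′ on the gene's strand from 250 bases before the RefSeq start, and annotated exon bases are left out. This start lies inside the GENCODE gene for both, and for Nkx2-2 the bases shown fall in an intron of its longer transcripts, so they are not the sequence before that gene's outermost start.

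Nkx2-2, chr2:147186456-147186652, minus strand: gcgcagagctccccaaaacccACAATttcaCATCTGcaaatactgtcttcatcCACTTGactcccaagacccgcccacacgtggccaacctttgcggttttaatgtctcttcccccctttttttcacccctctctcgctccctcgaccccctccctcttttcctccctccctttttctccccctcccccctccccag
Olig2, chr16:91225300-91225456, plus strand: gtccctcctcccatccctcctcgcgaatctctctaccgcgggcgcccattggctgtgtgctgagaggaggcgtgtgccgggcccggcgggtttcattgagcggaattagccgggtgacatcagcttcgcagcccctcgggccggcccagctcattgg

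Capitals mark matches to short motifs searched on both strands: the E-boxes CAGCTG and CAGATG of basic helix-loop-helix factors, the Sox motifs ACAAT and ACAAAG, the NK2 motif CACTTG, and the Myrf motifs CTGGCAC and CTGGTAC. The Nkx2-2 window held ACAAT 229 bases before the start, an E-box 220 bases before it, which reads CATCTG here and as its reverse complement on the other strand, and the NK2 motif 197 bases before it. None of these matches overlap. The windows of all promoters in the table were cut to the same length, but annotated exon bases were not left out of them. Among these, 23.4% held ACAAT, 11.8% CAGATG and 9.62% CACTTG. The Olig2 window held none of the 7 motifs. At its length 19.3% of all windows held ACAAT, 10.8% ACAAAG, 9.54% CAGATG, 7.97% CACTTG, 7.86% CAGCTG, 2.6% CTGGCAC and 1.19% CTGGTAC. The Sox6 windows, not shown, each held 2 to 4 matches, and Sox6, like Olig2, passed no comparison with the culture. The Sox8 window had no bases outside annotated exons. A match of this kind is a match of letters and not a measured binding site. Any link between these matches and the levels was not tested.

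Depth was similar in all libraries, from 32513886 to 39062409 recovered reads. The levels of the driver genes contradicted the labels in all 6 gliomas. Egfr stood at 3594 to 5109 CPM in the PDGF-B-labelled gliomas and at 25.6 to 41.2 CPM in the EGFRvIII-labelled gliomas, and Pdgfb at 1.95 to 4.88 CPM and 277 to 386 CPM. Cdkn2a, in the Ink/Arf locus, stood at 2.94 to 4.99 CPM in the PDGF-B-labelled gliomas, below the 11.1 to 26.1 CPM of those labelled Ink/Arf -/-. The culture held 282 CPM of Egfr, 245 CPM of Pdgfb and 10.7 CPM of Cdkn2a. Groups are therefore named by label, and every direction below is between libraries as labelled. Markers of cell division and of microglia also differed among the libraries. The 12 mitosis genes summed to 163 CPM in PDGF-B replicate 2, to 870 to 1328 CPM in the other 5 gliomas and to 3345 CPM in the culture. The 18 microglia and macrophage genes summed to 567 to 2336 CPM in the PDGF-B-labelled gliomas, to 8258 to 18562 CPM in the EGFRvIII-labelled gliomas and to 22.5 CPM in the culture.

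Across the 7 genes, Myrf rose in the PDGF-B-labelled gliomas over the EGFRvIII-labelled gliomas, and Sox10 rose in both glioma groups over the culture. Myrf and Nkx2-2 rose over the culture in the PDGF-B-labelled gliomas. Of these calls, only those of Sox10 held in every fit that left out 1 glioma and at a threshold of 0.01. Olig1, Olig2, Sox8 and Sox6 passed no comparison at an adjusted p of 0.05, with limma fitted over all 17422 genes. In 6 of the 7 genes the highest library was PDGF-B replicate 2, and for Sox6 it was PDGF-B replicate 1. In 5 of 7 the lowest library was EGFRvIII replicate 1, and for Olig1 and Sox10 it was the culture. Fewer cells that express a gene and less of its RNA per cell cannot be told apart in these bulk libraries.

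**Figure D1:**
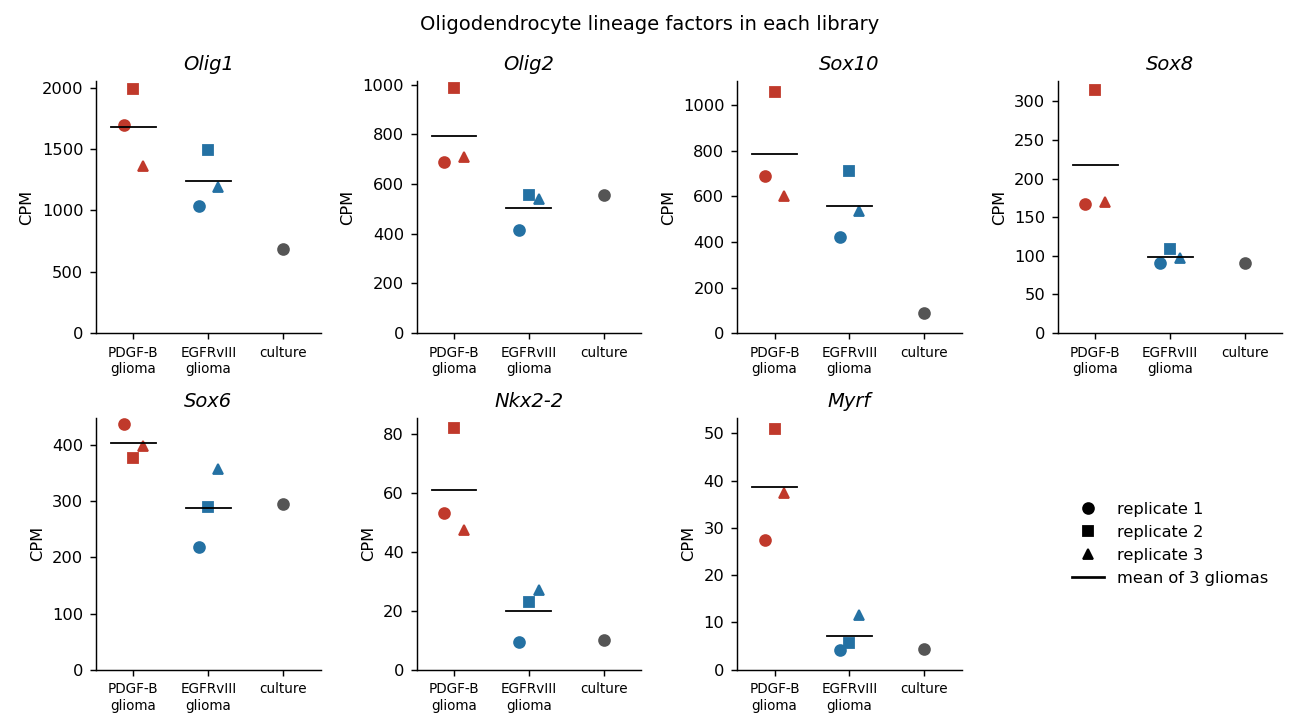
CPM of each of the 7 genes, 1 panel a gene with its own axis from 0. Each point is a library, circles, squares and triangles are replicates 1, 2 and 3, and the line is the mean of 3 gliomas (3 PDGF-B-labelled gliomas, 3 labelled EGFRvIII, 1 culture). The PDGF-B-labelled gliomas lie above all EGFRvIII-labelled gliomas for Olig2, Sox8, Sox6, Nkx2-2 and Myrf, as for 10.3% of all genes. Of all genes 22.9% do not overlap in either direction. Only Myrf passed limma between the glioma groups at an adjusted p of 0.05. The groups overlap for Olig1 and Sox10, where the culture is the lowest library.

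Olig1, which acts in oligodendrocyte maturation, stood at 1695, 1991 and 1364 CPM in PDGF-B-labelled replicates 1 to 3, at 1036, 1495 and 1189 CPM in EGFRvIII-labelled replicates 1 to 3, and at 683 CPM in the culture. The glioma groups overlapped, and the culture lay below all 6 gliomas. The means were 1684 ± 313 CPM and 1239.8 ± 234 CPM (SD, n = 3 each), a log2 difference of 0.44 ± 0.25 (SE) with a 95% interval from -0.15 to 1.03 and a limma adjusted p of 0.422. The log2 difference from the culture was 1.28 ± 0.35 (SE, limma adjusted p = 0.0624) for the PDGF-B-labelled gliomas and 0.84 ± 0.35 (SE, limma adjusted p = 0.195) for the EGFRvIII-labelled gliomas. Without PDGF-B replicate 3 the first of these was 1.43 with an adjusted p of 0.0470.

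Olig2, the specifier of the lineage, stood at 688, 987 and 711 CPM in the PDGF-B-labelled gliomas, at 415, 557 and 540.5 CPM in the EGFRvIII-labelled gliomas, and at 555 CPM in the culture. Each PDGF-B-labelled glioma lay above each labelled EGFRvIII, and the culture lay within the range of the latter. The means were 795 ± 166 and 504 ± 77.6 CPM (SD, n = 3 each), and the log2 difference of 0.65 ± 0.24 (SE, limma adjusted p = 0.221) did not pass. Against the culture the log2 differences were 0.50 ± 0.33 (SE, limma adjusted p = 0.36) for the label PDGF-B and -0.15 ± 0.33 (SE, limma adjusted p = 0.836) for the label EGFRvIII, with an interval from -0.92 to 0.62 for the latter.

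The CPM ratio of Olig1 to Olig2 was 2.46, 2.02 and 1.92 in the PDGF-B-labelled gliomas, 2.5, 2.68 and 2.20 in the EGFRvIII-labelled gliomas, and 1.23 in the culture. All 6 gliomas lay above the culture. Between the glioma groups, which overlapped, the log2 ratio differed by -0.21 (PDGF-B minus EGFRvIII, exact two-sided permutation test, p = 0.2, n = 3 each, where the smallest possible p is 0.1).

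Sox10, which maintains precursors and drives myelin genes with Myrf, lay far lower in the culture than in either glioma group. It stood at 692, 1059 and 604 CPM in the PDGF-B-labelled gliomas, at 422, 711 and 537 CPM in the EGFRvIII-labelled gliomas, and at 87.7 CPM in the culture. The glioma groups overlapped, and the lowest glioma lay far above the culture. The mean of 785 ± 241 CPM (SD, n = 3) in the PDGF-B-labelled gliomas gave a log2 difference from the culture of 3.12 ± 0.41 (SE, limma adjusted p = 0.00596), which is 8.69-fold. The mean of 557 ± 146 CPM (SD, n = 3) in the EGFRvIII-labelled gliomas gave 2.63 ± 0.41 (SE, limma adjusted p = 0.00826), which is 6.20-fold. Both comparisons share the single culture library, so they are not independent. Both held when each glioma of the group compared was left out in turn, with log2 differences of 2.88 to 3.29 and 2.44 to 2.82. Between the glioma groups the log2 difference was 0.49 ± 0.30 (SE, limma adjusted p = 0.456), with an interval from -0.21 to 1.18.

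Sox10 also marks Schwann cells and the neural crest, so the other markers of those cells were read beside it. Of 16 such markers 10 were measured, and the crest genes Foxd3 and Tfap2b were among those not analysed here. The summed level of the 10 was 329 to 548 CPM in the PDGF-B-labelled gliomas, 282 to 446 CPM in the EGFRvIII-labelled gliomas and 93.6 CPM in the culture. Over the culture 3 of 10 rose in the PDGF-B-labelled gliomas (Cdh19, Dct and Pou3f1) and 4 of 10 in the EGFRvIII-labelled gliomas (with Mitf). Of all genes, 7.73% and 8.2% were called higher there. The medians of the 10 were 1.26 and 1.62 on the log2 scale, and the difference was negative for 4 and 3 of the 10. One of these, the crest factor Tfap2a, stood at 0.0583, 0 and 0.168 CPM in the PDGF-B-labelled gliomas, at 0, 0.478 and 0.738 CPM in the EGFRvIII-labelled gliomas and at 2.08 CPM in the culture, and neither difference from the culture passed. Cdh19, a cadherin of Schwann cell precursors, stood at 169 ± 27.4 and 119.7 ± 69.9 CPM (SD, n = 3 each) against 22.3 CPM in the culture, and Dct, a pigment cell enzyme, at 4.69 ± 0.421 and 3.10 ± 1.34 CPM against 0.463 CPM. Between the glioma groups 1 of 10 passed, Egr2, which was lower in the PDGF-B-labelled gliomas, and the median was 0.46, with 3 of the 10 differences negative. That call held without PDGF-B replicate 3 and ended without any other 1 glioma, and over the culture 2 of 10 rose without PDGF-B replicate 1 and without EGFRvIII replicate 2. Between the glioma groups 2.63% of all genes were called lower. The part of Schwann and crest cells in the Sox10 values was not tested.

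Sox8, the other SoxE factor here, stood at 167, 315 and 169 CPM in the PDGF-B-labelled gliomas, at 90.1, 108 and 96.9 CPM in the EGFRvIII-labelled gliomas, and at 90.3 CPM in the culture. The glioma groups did not overlap, with PDGF-B replicate 2 far above its own group and the culture at the bottom of the range of the EGFRvIII-labelled gliomas. The means were 217 ± 84.9 and 98.4 ± 9.15 CPM (SD, n = 3 each). The log2 difference of 1.08 ± 0.27 (SE) had a limma adjusted p of 0.0900 and did not pass. Against the culture it was 1.20 ± 0.38 (SE, limma adjusted p = 0.0976) and 0.12 ± 0.38 (SE, limma adjusted p = 0.892) for the labels PDGF-B and EGFRvIII.

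The CPM ratio of Sox8 to Sox10 was 0.241, 0.298 and 0.280 in the PDGF-B-labelled gliomas, 0.213, 0.152 and 0.181 in the EGFRvIII-labelled gliomas, and 1.03 in the culture. The glioma groups did not overlap, and the culture lay above all 6 gliomas. The log2 ratio was 0.59 higher in the PDGF-B-labelled gliomas, with an exact two-sided permutation p of 0.1 (n = 3 each), the smallest that this design can give.

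Sox6, which holds precursors back from differentiation, stood at 438, 377 and 399 CPM in the PDGF-B-labelled gliomas, at 218, 289.8 and 358 CPM in the EGFRvIII-labelled gliomas, and at 295 CPM in the culture. The glioma groups did not overlap, but EGFRvIII replicate 3 came close to PDGF-B replicate 2. The means were 405 ± 30.9 and 289 ± 69.7 CPM (SD, n = 3 each), with a log2 difference of 0.51 ± 0.23 (SE, limma adjusted p = 0.316). The log2 differences from the culture were 0.46 ± 0.32 (SE, limma adjusted p = 0.388) for the label PDGF-B and -0.06 ± 0.32 (SE, limma adjusted p = 0.938) for the label EGFRvIII. The sign of the latter turned without EGFRvIII replicate 1, to 0.13 with a limma adjusted p of 0.836.

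Nkx2-2, which promotes exit from the precursor state, stood at 53.3, 82.0 and 47.4 CPM in the PDGF-B-labelled gliomas, at 9.35, 23.1 and 27.2 CPM in the EGFRvIII-labelled gliomas, and at 10.1 CPM in the culture. The glioma groups did not overlap, and the culture lay within the range of the EGFRvIII-labelled gliomas, above only replicate 1. The means were 60.9 ± 18.5 and 19.9 ± 9.34 CPM (SD, n = 3 each), a log2 difference of 1.71 ± 0.42 (SE) with a limma adjusted p of 0.0840. Nkx2-2 rose over the culture in the PDGF-B-labelled gliomas, with a log2 difference of 2.55 ± 0.60 (SE, limma adjusted p = 0.0414), which is 5.85-fold. This call ended without PDGF-B replicate 1 (2.62, adjusted p = 0.0871) and without replicate 2 (2.31, adjusted p = 0.0883). In the EGFRvIII-labelled gliomas the log2 difference from the culture was 0.84 ± 0.60 (SE, limma adjusted p = 0.456).

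Myrf, required for myelin gene expression, showed the largest difference between the glioma groups among the 7 genes. It stood at 27.4, 50.9 and 37.3 CPM in the PDGF-B-labelled gliomas, at 4.22, 5.74 and 11.6 CPM in the EGFRvIII-labelled gliomas, and at 4.39 CPM in the culture. The lowest PDGF-B-labelled glioma lay above the highest labelled EGFRvIII, and the culture stood level with EGFRvIII replicate 1. The means were 38.5 ± 11.8 and 7.18 ± 3.89 CPM (SD, n = 3 each), with a log2 difference of 2.5 ± 0.41 (SE, limma adjusted p = 0.0312), which is 5.66-fold. The direction held in every fit, but the call ended in 5 of the 6 that left out 1 glioma. These were the fits without PDGF-B replicate 1 (2.72, adjusted p = 0.0963) or 2 (2.28, adjusted p = 0.110), or EGFRvIII replicate 1 (2.19, adjusted p = 0.0804), 2 (2.41, adjusted p = 0.133) or 3 (2.91, adjusted p = 0.0771). Without PDGF-B replicate 3 it held, with an adjusted p of 0.0307. Myrf also rose over the culture in the PDGF-B-labelled gliomas, by a log2 difference of 3.07 ± 0.59 (SE, limma adjusted p = 0.0214), and this call ended without PDGF-B replicate 2 (2.85, adjusted p = 0.0506). For the EGFRvIII-labelled gliomas the log2 difference from the culture was 0.57 ± 0.59 (SE, limma adjusted p = 0.620).

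**Figure D2:**
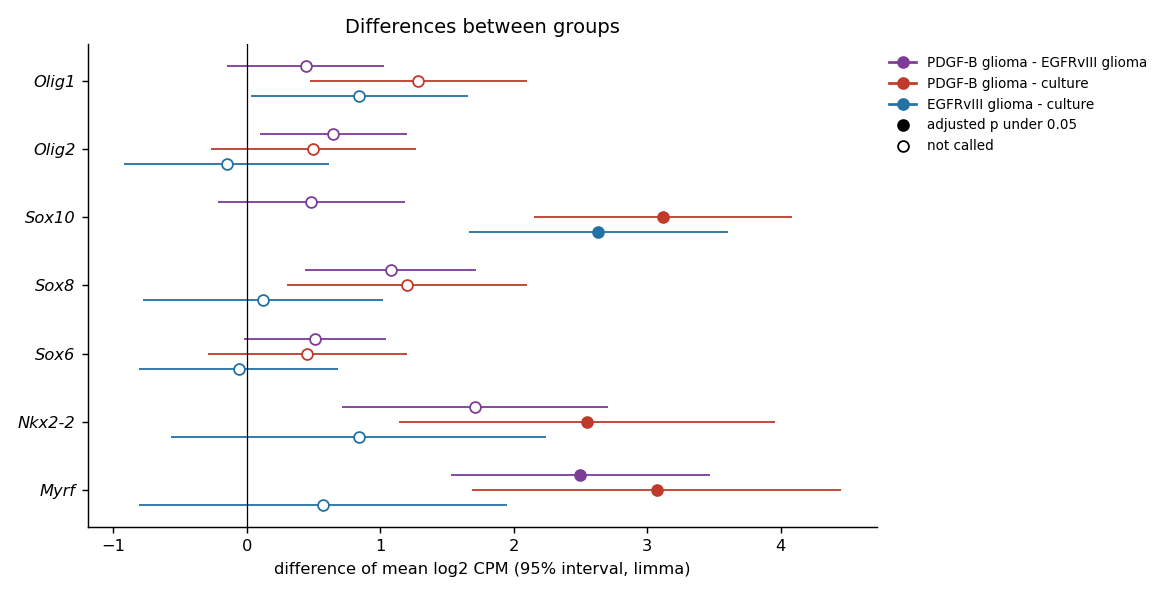
Log2 difference of each of the 7 genes in the 3 comparisons, from limma, with 95% intervals; filled points passed an adjusted p of 0.05 and the vertical line marks no difference. Sox10 stands apart from the culture in both glioma groups, at 3.12 and 2.63, and Myrf has the largest difference between the glioma groups, at 2.5.

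Counted together, 1 of 7 genes was called higher in the PDGF-B-labelled gliomas than in the EGFRvIII-labelled gliomas and none lower. Of all genes tested, 3.35% were called in either direction, 0.717% higher and 2.63% lower. All 7 differences were positive, with a median of 0.65 beside a median over all genes of -0.00015. In limma 4 of 7 had an unadjusted p under 0.05, beside 2906 of all 17422 genes. In 5 of 7 genes all 3 PDGF-B-labelled gliomas lay above all 3 labelled EGFRvIII, as did 10.3% of all genes, and 22.9% of all genes did not overlap in either direction. The 7 genes were chosen with earlier results of these data known, so these counts are description and not a test. Against the culture, 3 of 7 were called higher in the PDGF-B-labelled gliomas, where 7.73% of all genes were higher, 1.73% lower and 9.45% either, and the median was 1.28. In the EGFRvIII-labelled gliomas 1 of 7 was called higher, where 8.2% of all genes were higher, 1.34% lower and 9.55% either, and the median was 0.57 with 5 of 7 differences positive. Without 1 glioma the counts were 0 to 1, 1 to 4 and 1. The lowest count of the second comparison came without PDGF-B replicate 2 and the highest without PDGF-B replicate 3. PDGF-B replicate 2, the highest library for 6 of the genes, is also the library with the fewest mitosis reads, and the part of cell division in these values was not tested. None of the 12 mitosis genes was called in any comparison, with medians of -0.65, -2.39 and -1.74. In limma 0, 5 and 0 of the 12 had an unadjusted p under 0.05, beside 2906, 4733 and 4157 of all 17422 genes.

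To compare the genes with each other, CPM was divided by exon length, over the union of all annotated exons. In the PDGF-B-labelled gliomas the order was Olig1 (779 ± 145 CPM per kilobase, SD, n = 3), Olig2 (314 ± 65.7), Sox10 (257 ± 79.0), Sox8 (69.6 ± 27.2), Sox6 (27.3 ± 2.08), Nkx2-2 (21.2 ± 6.44) and Myrf (4.5 ± 1.38). The neighbours Olig2 and Sox10, and Sox6 and Nkx2-2, overlapped in range in this group. Within libraries Olig2 stood above Sox10 in 3 of 3 of these gliomas and Sox6 above Nkx2-2 in 2 of 3. In the EGFRvIII-labelled gliomas the order was the same, at 573 ± 108 CPM per kilobase for Olig1, 199 ± 30.7 for Olig2, 182 ± 47.7 for Sox10, 31.6 ± 2.94 for Sox8, 19.5 ± 4.70 for Sox6, 6.91 ± 3.25 for Nkx2-2 and 0.839 ± 0.454 for Myrf. There, of the neighbours, Olig2 and Sox10 overlapped in range, with Olig2 the higher in 2 of 3 libraries. In the culture Sox8 and Sox10 stood level, at 29.0 and 28.7 CPM per kilobase, below Olig1 at 316 and Olig2 at 219 and above Sox6 at 19.9, Nkx2-2 at 3.5 and Myrf at 0.513. With the length of the longest transcript in place of all exons, Sox6 came to 46.7 and 33.3 CPM per kilobase in the PDGF-B-labelled and the EGFRvIII-labelled gliomas. On that length Sox6 and Sox8 had level means in the EGFRvIII-labelled gliomas (33.3 ± 8.05 and 32.8 ± 3.05, SD, n = 3 each). Sox6 was the higher only in replicate 3. In the culture Sox6 stood at 34.0, above Sox10 at 31.5 and Sox8 at 30.1. The means of Sox10 and Olig2 were also level in the EGFRvIII-labelled gliomas (200.3 ± 52.4 and 199.3 ± 30.7, SD, n = 3 each), with Sox10 the higher only in replicate 2.

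**Figure D3:**
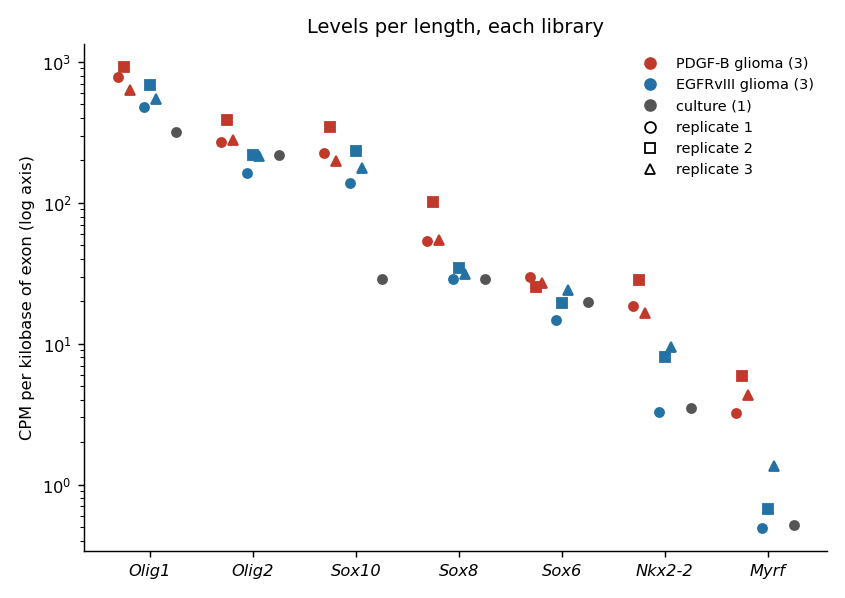
CPM per kilobase of exon of the 7 genes on a log axis; each point is a library, coloured by group, and circles, squares and triangles are replicates 1, 2 and 3. Olig1 is highest and Myrf lowest in every library, and in the culture Sox10 falls to the level of Sox8.

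Genes of like pattern were ranked by the root mean square difference of log2 values, each centred on its own mean over the 7 libraries, among 11402 genes with a mean of at least 5 CPM. The nearest genes were Eps8, Calcoco1 and Scg3 for Olig1 (0.088, 0.090 and 0.10), Fsd1, Bbs2 and Vps37d for Olig2 (0.12, 0.13 and 0.13) and Tnfsf12, Larp6 and Mro for Sox10 (0.17, 0.17 and 0.21). For Sox8 they were Zfp521, Fam117a and Grb14 (0.11, 0.15 and 0.20), and for Sox6 Sorcs1, Lrrc8b and Zfp799 (0.13, 0.13 and 0.13). The nearest to Nkx2-2 were Dbx2, Kcnn2 and Camsap3 (0.33, 0.36 and 0.41), and to Myrf Srpk3, Plxnb3 and Slc13a5 (0.33, 0.37 and 0.46). Among the 7 genes themselves, Nkx2-2 was rank 4 of 11402 for Myrf and Myrf rank 12 for Nkx2-2 (0.48), the nearest pair by rank, while Olig2 and Sox6 were the nearest pair by distance (0.24). Genes with small changes lie close to many others by this measure, so distances are not comparable between the 7 genes.

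Other regulators of the lineage, 24 of 25 measured, showed no call between the glioma groups, with a median of 0.38. In limma 11 of the 24 had an unadjusted p under 0.05, beside 2906 of all 17422 genes. The most abundant were Zeb1, a zinc finger repressor (828 ± 97.2 against 510.4 ± 124 CPM, SD, n = 3 each, labels PDGF-B and EGFRvIII), and Tcf4, a partner of basic helix-loop-helix factors (691 ± 10.9 against 433 ± 65.9 CPM, SD, n = 3 each). Against the culture 2 rose and 6 fell in the PDGF-B-labelled gliomas and 5 fell in the EGFRvIII-labelled gliomas, with medians of -0.38 and -0.61. Prrx1 and Etv4 were those that rose. Nfib, a factor of gliogenesis, stood at 612 CPM in the culture against 194 ± 20.9 and 180.0 ± 23.2 CPM (SD, n = 3 each), with log2 differences of -1.66 and -1.77 (limma adjusted p = 0.00999 and 0.00603). Lhx2 and Dlx1, factors of forebrain progenitors, fell in both groups as well. The stem cell factor Sox2 also fell in both, from 397 CPM to 162 ± 24.3 and 165 ± 26.6 CPM (SD, n = 3 each), with log2 differences of -1.31 and -1.28 (limma adjusted p = 0.0335 and 0.0345). Without 1 glioma the counts that fell were 3 to 6 and 3 to 4, with the lowest without PDGF-B replicate 1 and without EGFRvIII replicate 3. The count that rose was 0, 1 and 3 without PDGF-B replicates 1, 2 and 3. Between the glioma groups 2 were called lower without PDGF-B replicate 3. Over all genes, 7.73% rose and 1.73% fell against the culture for the label PDGF-B, and 8.2% and 1.34% for the label EGFRvIII.

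Of 14 inhibitors of oligodendrocyte differentiation, 2 rose in the PDGF-B-labelled gliomas over the EGFRvIII-labelled gliomas, Bmp4 and Gpr17, and the median was 0.19. Gpr17, a receptor of precursors about to differentiate, stood at 498, 1267 and 482 CPM against 76.8, 123 and 103 CPM, and at 33.7 CPM in the culture. Its log2 difference between the glioma groups was 2.76 (limma adjusted p = 0.0257), and PDGF-B replicate 2 was again the highest library. Both calls ended in the fits without PDGF-B replicate 1 or 2 or EGFRvIII replicate 1, 2 or 3, where none of the 14 was called. Against the culture 5 fell and 3 rose in the PDGF-B-labelled gliomas and 6 fell in the EGFRvIII-labelled gliomas, with medians of -0.63 and -0.78. Those that fell in both were Id1, Id3 and Id4, which bind and block basic helix-loop-helix factors, and the Notch effectors Hes5 and Hey1. Id1 stood at 33.3 CPM in the culture against 0.928 ± 0.555 and 1.66 ± 0.759 CPM (SD, n = 3 each), and Hes5 at 49.4 CPM against 4.90 ± 1.52 and 3.65 ± 1.52 CPM. Without PDGF-B replicate 1 the first count that fell was 3, and without EGFRvIII replicate 1 or 3 the second was 3. The count that rose was 2, 1 and 4 without PDGF-B replicates 1, 2 and 3. Of all genes, the 3 comparisons called 0.717%, 7.73% and 8.2% higher and 2.63%, 1.73% and 1.34% lower.

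Of 24 genes that promote differentiation 22 were measured, and 1, St18, rose in the PDGF-B-labelled gliomas over the EGFRvIII-labelled gliomas, with a median of 0.29. St18 was low in all libraries, at most 1.65 CPM, and its call was lost in the same 5 fits. Over the culture Nfatc2, Klf9 and Zfp488 rose in both groups, and Rxrg in the EGFRvIII-labelled gliomas, with medians of 0.14 and -0.32. Zfp488, a zinc finger partner of Olig2, stood at 93.2 ± 12.7 and 68.0 ± 14.6 CPM (SD, n = 3 each) against 18.9 CPM, with log2 differences of 2.29 and 1.82 (limma adjusted p = 0.00508 and 0.00888). Nfatc2, a calcium-dependent factor, stood at 62.6 ± 18.3 and 41.2 ± 10.8 CPM against 2.17 CPM. Without PDGF-B replicate 3 the first count was 6. Rxrg was low, at 3.55 ± 0.627 CPM (SD, n = 3) in the EGFRvIII-labelled gliomas against 0.289 CPM in the culture. Differences from the culture were negative for 11 of the 22 genes in the PDGF-B-labelled gliomas and for 13 in the EGFRvIII-labelled gliomas. The all-gene medians there were 0.037 and 0.013, and 7.73% and 8.2% of all genes were called higher. Between the glioma groups 0.717% of all genes were called higher.

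Of 20 genes that mark precursors, 4 rose in the PDGF-B-labelled gliomas over the EGFRvIII-labelled gliomas (Erbb3, Gpr17, Neu4 and Susd5, median 0.95), 15 over the culture (median 2.76) and, in the EGFRvIII-labelled gliomas, 7 over the culture (median 1.59). None fell. Erbb3, a neuregulin receptor, stood at 132, 145 and 118 CPM in the PDGF-B-labelled gliomas, at 60.5, 62.1 and 47.0 CPM in the EGFRvIII-labelled gliomas, and at 3.36 CPM in the culture. It was called in all 3 comparisons, with log2 differences of 1.22, 5.26 and 4.04 (limma adjusted p = 0.0262, 0.00031 and 0.000336). Cspg4, the NG2 proteoglycan of precursors, stood at 1065 ± 285 and 654 ± 77.9 CPM (SD, n = 3 each) against 101 CPM. Between the glioma groups no gene of the list was called without PDGF-B replicate 1 or 2 or EGFRvIII replicate 2 or 3, 1 was without EGFRvIII replicate 1, and 7 were without PDGF-B replicate 3. Over the culture 10 to 15 and 4 to 6 were called, the lowest without PDGF-B replicate 1 and without EGFRvIII replicate 3.

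Of 15 measured genes of committed and newly formed oligodendrocytes, 3 rose in the PDGF-B-labelled gliomas over the EGFRvIII-labelled gliomas (Bmp4, Enpp6 and Gpr17, median 0.86), 7 over the culture (median 1.97) and, in the EGFRvIII-labelled gliomas, 2 over the culture (Bcas1 and Itpr2, median 0.36). Bcas1, a marker of early myelinating cells, stood at 581 ± 54.8 and 399.8 ± 16.4 CPM (SD, n = 3 each) against 70.8 CPM. Of 21 measured myelin and mature genes, the corresponding counts were 3 (Fa2h and Tspan2 among them, median 0.51), 14 (median 2.91) and 9 (median 2.23), and none fell. The shares of all genes called higher in the 3 comparisons were 0.717%, 7.73% and 8.2%. Between the glioma groups 14 of the 21 differences were positive and 7 negative. Trf, which encodes transferrin, stood at 13.2, 27.8 and 223 CPM in the PDGF-B-labelled gliomas and at 422, 825 and 308 CPM in the EGFRvIII-labelled gliomas. The first group lay below the second without overlap, and the log2 difference of -3.45 did not pass (limma adjusted p = 0.12). Fa2h, an enzyme of myelin lipids, stood at 11.3, 18.4 and 10.5 CPM in the PDGF-B-labelled gliomas, at 0.918, 0.717 and 2.92 CPM in the EGFRvIII-labelled gliomas, and at 0.347 CPM in the culture. Its glioma groups did not overlap, and the log2 difference was 3.31 (limma adjusted p = 0.0312). Without PDGF-B replicate 1 or 2 or any 1 EGFRvIII-labelled glioma none of these genes was called between the glioma groups, and without PDGF-B replicate 3 the counts were 5 and 3, and 1 gene of the myelin list was called lower. Over the culture, without PDGF-B replicate 2, 4 genes of the first list were called. Gpr17 and Bmp4 are in more than 1 list, so the counts are not separate. The gene lists were chosen with earlier results of these data in view, and no list was tested as a whole.

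**Figure D4:**
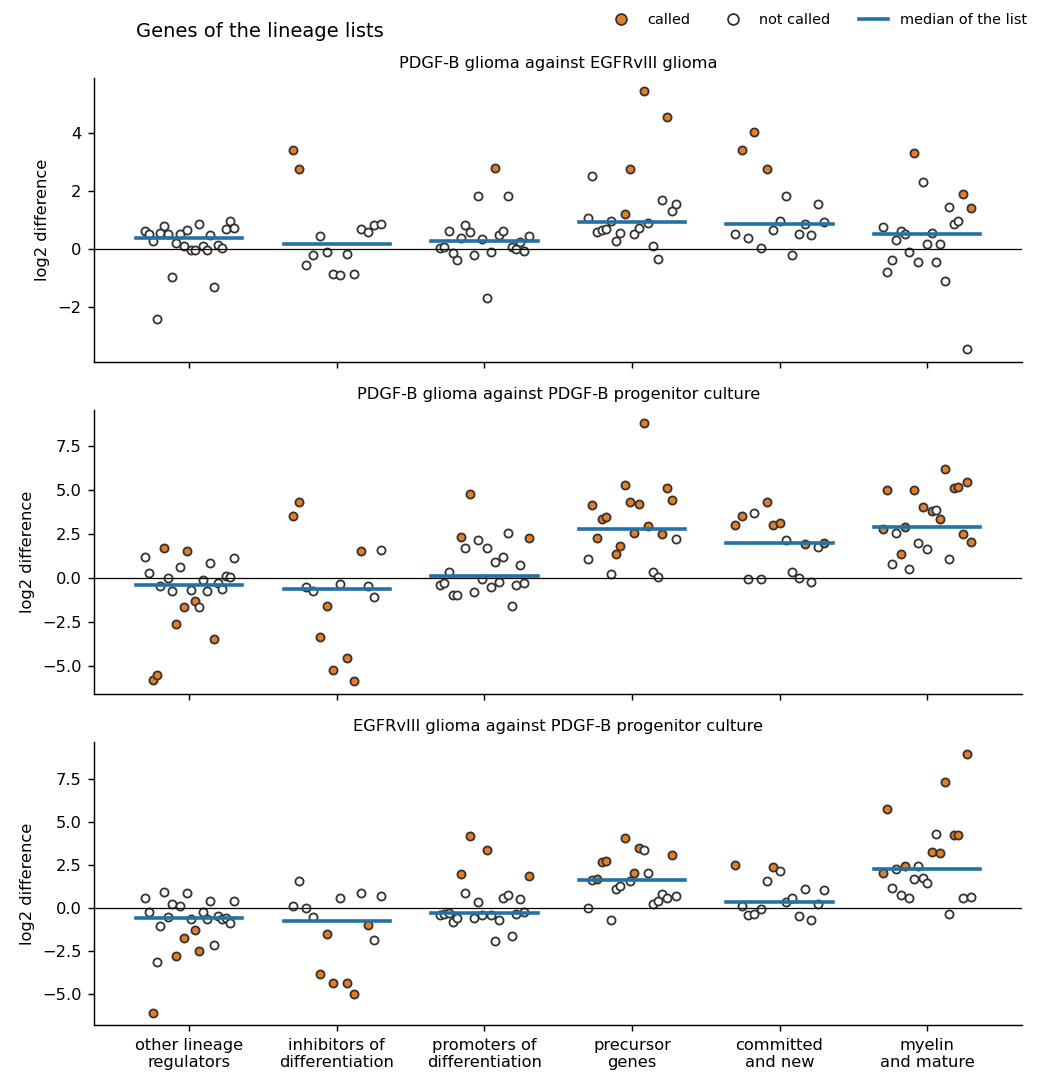
Log2 differences of the measured genes of 6 lineage lists in the 3 comparisons, from limma; each point is a gene, filled where it passed an adjusted p of 0.05, and the bar is the list median. The precursor and myelin medians lie above 0 against the culture, at 2.76 and 2.91 for the PDGF-B-labelled gliomas.

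Markers of other cells moved with these comparisons, and their part in the values of the 7 genes was not tested. Of 18 microglia and macrophage genes 17 were lower in the PDGF-B-labelled gliomas than in the EGFRvIII-labelled gliomas (median -3.29), and 17 and 18 were higher than in the culture, where C1qb, Trem2, Tyrobp, Fcrls and Spi1 were listed at 0. The first of these counts was 18 without PDGF-B replicate 3, 1 without EGFRvIII replicate 1 or 2, and 0 without PDGF-B replicate 1 or 2 or EGFRvIII replicate 3, while the counts against the culture were 17 to 18. Of 12 neural stem and radial glia genes none passed between the glioma groups (median 0.02, and limma gave 0 genes with an unadjusted p under 0.05), while 6 and 5 fell against the culture (medians -2.94 and -2.75). The count of 6 was 3 without PDGF-B replicate 1 or 2 and 9 without replicate 3. Their summed level was 643 to 2639 CPM, 1482 to 2285 CPM and 7980 CPM in the PDGF-B-labelled gliomas, the EGFRvIII-labelled gliomas and the culture. Of 12 astrocyte genes 1 rose between the glioma groups, S100b, which precursors also express (77.3 ± 14.1 against 16.5 ± 6.80 CPM, SD, n = 3 each, and 0.939 CPM in the culture). Against the culture 2 rose and 2 fell for the label PDGF-B, and 1 rose and 2 fell for the label EGFRvIII. The S100b call between the glioma groups ended without PDGF-B replicate 1 or 2 or EGFRvIII replicate 2 or 3. The medians of the astrocyte genes were -0.21, -2.85 and -2.07, and they summed to 2012 to 2515 CPM, 1495 to 1623 CPM and 2298 CPM. Of all genes, the 3 comparisons called 0.717%, 7.73% and 8.2% higher and 2.63%, 1.73% and 1.34% lower.

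Of 11 measured neuroblast and neuron genes 0, 3 and 0 were called in the 3 comparisons (medians 0.14, 0.40 and -0.15), and 2, 8 and 6 had an unadjusted p under 0.05 in limma. They summed to 1244 to 1768 CPM, 1080 to 1607 CPM and 1447 CPM. Of 6 endothelial genes 0, 1 and 3 were called, of 8 mural and fibroblast genes 0, 4 and 1, and of 2 ependymal genes none in any comparison. The limma counts at an unadjusted p under 0.05 were 4, 2 and 4 for endothelial genes, 2, 4 and 5 for mural and fibroblast genes, and 0, 1 and 1 for ependymal genes. These 3 lists were low, with sums of at most 29.4, 23.3 and 14.0 CPM in any library. Without 1 glioma at most 3 genes of any of them were called in 1 direction. Over all 17422 genes, 2906, 4733 and 4157 had an unadjusted p under 0.05 in limma in the 3 comparisons. The shares called in either direction were 3.35%, 9.45% and 9.55%.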

How the data were processed

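RNA from 7 libraries was sequenced on a BGISEQ-500 instrument. Library preparation is described with poly(A) capture or rRNA removal, without saying which was applied. STAR, edgeR and mm10 are named, with no version, in the submitters' processing notes. Per the file headers, the values deposited are log2 CPM. For EGFRvIII replicate 3 the header gives no unit, but the floor of -4.12 is that of the other libraries. A prior count of 2 reads, recovered from that floor, was subtracted to give the CPM printed. The low values (below 0.2 CPM) were all multiples of 0.01 read within 0.001 read, and 71.1% to 80.0% were whole reads within 0.02 read, so counts were estimated with fractions. Symbols came from GENCODE M21 for 17254 IDs and were missing for 168.

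The log2 values as deposited were tested with limma 3.58.1 in R 4.3.3 (intensity trend, robust moderation) over all 17422 genes, with Benjamini-Hochberg adjustment and calls at 0.05. The glioma groups were compared in the 6 gliomas, with 4 residual degrees of freedom. Both comparisons with the culture came from 1 fit of 7 libraries in 3 groups, in which the lone culture library is assumed to vary like the gliomas. Scripts were tested on simulated data. Samples were grouped by title. The p-values measure the spread between tumours that the series calls independent. Depth, from recovered totals, was similar, and its counting error is small beside that spread for all 7 genes.

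The members and gene lists were chosen with earlier results of these data known. Named were all members in every library, the driver genes, the called genes of smallest p in each list and direction (at most 4, or the 2 most abundant where none was called), and the 3 genes most like each member. Genes outside this rule were chosen after their values were seen: those that complete a count (Id3, Sox5, Sox13), Tfap2a, and markers named because they were not analysed or at 0. Alternatives covered scaling, pseudocounts, a minimum of 1 CPM, moderation, the threshold, a replicate block, transcript length and leaving out each glioma. Alternative pseudocounts for the ratios were added after seeing the data. Not every gene meeting this rule is reported here.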

Additional observations from a re-analysis of the deposited data

How the results depend on the processing

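Beside the fits that left out 1 glioma, the alternatives gave 154 values of the 7 genes with the same direction and side of the threshold, 6 that lost the call and 1 that gained it. The stricter threshold of 0.01 ended the calls of Myrf between the glioma groups and of Myrf and Nkx2-2 in the PDGF-B-labelled gliomas against the culture. Without trend and robust moderation the adjusted p was 0.0549 for Myrf between the glioma groups and 0.0716 for Nkx2-2 over the culture. With library totals in place of scaling factors Olig1 passed in the PDGF-B-labelled gliomas against the culture (1.40, adjusted p = 0.0332). That scaling shifted the median of all genes by 0.12 in this comparison, and Olig1 stood 1.25 above the shifted median. Scaling to equal medians shifted it by -0.11 in the EGFRvIII-labelled gliomas against the culture. The difference of Sox6 between the EGFRvIII-labelled gliomas and the culture ran from -0.23 to 0.13 without 1 glioma, reversed only without EGFRvIII replicate 1. Genes called between the glioma groups numbered 583, but 7 at a threshold of 0.01 and 224 without trend and robust moderation. Without 1 glioma they ran from 4 (PDGF-B replicate 1) to 1282 (PDGF-B replicate 3). For the PDGF-B-labelled gliomas against the culture 1647 became 507 at 0.01 and 854 to 2303 without 1 glioma. For the EGFRvIII-labelled gliomas 1663 became 704 and 1058 to 1612. With the longest transcript as length, Sox6 moved to 46.7 and 33.3 CPM per kilobase in the PDGF-B-labelled and EGFRvIII-labelled gliomas, and Nkx2-2 and Myrf to 28.7 and 6.79 in the PDGF-B-labelled gliomas. The ratios kept their direction, with p from 0.1 to 0.4. The cause of these changes was not tested.

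Deviations of same-numbered gliomas from their group means correlated at 0.18, -0.045 and -0.11 over 15122 genes. With only 3 gliomas a group, these values cannot settle whether the replicate numbers pair the gliomas. With the replicate number as a block 18 genes were called between the glioma groups, and Myrf had an adjusted p of 0.0589. Not every glioma correlated best with its own number. No paired analysis was possible against the culture because it has 1 library.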

Other observations

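Relatives of the Sox factors described above were read in the same libraries, and Sox5 and Sox13 were chosen after their values were seen. Sox9, the SoxE factor of stem cells and astrocytes, stood at 14.6, 9.45 and 36.8 CPM in the PDGF-B-labelled gliomas, at 37.1, 40.4 and 50.0 CPM in the EGFRvIII-labelled gliomas, and at 191 CPM in the culture. The culture lay above all 6 gliomas, the reverse of Sox10. PDGF-B replicate 2, the highest library for Sox10 and Sox8, was the lowest for Sox9. The log2 difference of Sox9 from the culture was -3.47 (limma adjusted p = 0.0203) in the PDGF-B-labelled gliomas and -2.17 (limma adjusted p = 0.0881) in the EGFRvIII-labelled gliomas, and between the glioma groups it was -1.29 (limma adjusted p = 0.22). The SoxD factor Sox5 stood at 89.3 ± 14.7 and 64.3 ± 12.5 CPM (SD, n = 3 each, labels PDGF-B and EGFRvIII) against 48.1 CPM in the culture, and passed no comparison. Sox13, the remaining SoxD factor, stood at 6.36 ± 0.662 and 3.86 ± 1.80 CPM against 13.1 CPM, and passed none.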
